A study of Mus musculus with 6 samples.

Results

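In bone marrow progenitors carrying MLL-AF9, 7 genes had opposite differences of the histone marks H3K79me2 and H3K79me3 between the D546R mutant of the fusion and its WT form. Chromatin immunoprecipitation with sequencing (ChIP-seq) had been done for H3K79me2 and H3K79me3, di- and trimethylation of lysine 79 of histone H3, in primary hematopoietic progenitor cells from mouse bone marrow. The cells had been given a retrovirus for the leukemia fusion protein MLL-AF9. The groups were MLL-AF9 (D546R), MLL-AF9 (D544R) and MLL-AF9 (WT), and every group carried the fusion, so no cells without it were compared here. Each genotype gave 1 library for each of the 2 marks, 6 in all, each merged from several sequencing runs. The antibodies came from different makers, Abcam for H3K79me2 and Diagenode for H3K79me3.

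The 7 genes were Zfp84, Lgals9, Il18r1, Dhx36, Dis3, Dagla and Pdk1, out of 24012 in the table and 8411 with enough reads in both marks. They were chosen from the comparison of D546R with WT: each was at least 2-fold apart in both marks, higher in one and lower in the other. In addition, the mean normalised count over the 3 libraries of a mark had to reach 100 and the 95% counting interval of the ratio had to exclude no change. The D546R and WT values below are therefore a description of what chose the genes and carry no test. With 1 library a group no error between cultures is known, and every interval covers counting error only.

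DOT1L is the enzyme that places methyl groups on H3K79, adding them one at a time, so that di- and trimethylation are successive products. The marks lie over the bodies of transcribed genes, and AF9 is a protein that binds DOT1L. A fusion of MLL with AF9 brings DOT1L to genes that MLL occupies. The 7 genes are known for different functions. Zfp84 encodes a zinc finger protein with a KRAB domain, of a family that mostly represses transcription. Lgals9 encodes galectin 9, a sugar-binding protein that is a ligand of the immune receptor TIM-3. Il18r1 encodes the ligand-binding chain of the receptor for interleukin 18. Dhx36 encodes a helicase that unwinds G-quadruplexes in RNA and DNA. Dis3 encodes the catalytic ribonuclease of the RNA exosome. Dagla encodes a lipase that makes the endocannabinoid 2-arachidonoylglycerol. Pdk1 encodes a kinase that inactivates pyruvate dehydrogenase.

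The counted regions, in mm9 coordinates, lay on 7 different chromosomes. Zfp84 (NM_023750) was counted on chromosome 7 from 30551570 to 30566438, Lgals9 (NM_010708) on chromosome 11 from 78774480 to 78798426 and Il18r1 (NM_008365) on chromosome 1 from 40520850 to 40557699. Dhx36 (NM_028136) lay on chromosome 3 from 62270563 to 62310910, Dis3 (NM_028315) on chromosome 14 from 99473852 to 99498989, Dagla (NM_198114) on chromosome 19 from 10317754 to 10379367 and Pdk1 (NM_172665) on chromosome 2 from 71709280 to 71741915. The regions were 14.9 to 61.6 kb long, against a median of 15.9 kb over all genes. Each spans exons and introns of the gene together. The header of the table says that a region starts 2 kb before the transcription start. Distances between neighbouring divergent gene starts were compared with those in the RefSeq GRCm38 promoter table. In 1483 of 1777 pairs (83.5%) the spacing fitted within 50 bases if the region of the minus-strand gene ended at its start, and in 1 pair if it ended 2 kb before it. On that reading the region of a minus-strand gene holds 2 kb beyond the transcript end and no promoter. This concerns Lgals9, Dhx36 and Dis3, while the regions of the plus-strand genes Zfp84, Il18r1 and Pdk1 hold the promoter.

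Promoter sequence was available for 6 of the 7 genes from RefSeq (GRCm38), and 4 are shown. They run from 3 CpGs (Lgals9) to 22 (Dhx36), short of the lowest and highest numbers given below. CpG content is a feature that the choice of genes did not use. Each line gives the 250 bases before the annotated start, 5′ to 3′ on the gene's own strand, and capitals mark CpG dinucleotides (CG, which reads the same on both strands).
Zfp84, chr7:29768302-29768551, plus strand: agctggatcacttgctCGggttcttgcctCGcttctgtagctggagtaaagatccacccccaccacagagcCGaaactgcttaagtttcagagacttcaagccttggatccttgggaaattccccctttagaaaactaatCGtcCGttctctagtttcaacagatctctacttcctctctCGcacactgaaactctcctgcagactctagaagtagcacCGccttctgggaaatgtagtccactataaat
Pdk1, chr2:71872974-71873223, plus strand, the first of its annotated starts: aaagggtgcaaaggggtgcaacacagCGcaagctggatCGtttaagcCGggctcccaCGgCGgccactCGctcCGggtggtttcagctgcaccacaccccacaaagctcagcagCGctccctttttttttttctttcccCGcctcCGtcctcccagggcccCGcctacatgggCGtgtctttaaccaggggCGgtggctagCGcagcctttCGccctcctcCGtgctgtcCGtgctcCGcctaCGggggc
Lgals9, chr11:78984925-78985174, minus strand: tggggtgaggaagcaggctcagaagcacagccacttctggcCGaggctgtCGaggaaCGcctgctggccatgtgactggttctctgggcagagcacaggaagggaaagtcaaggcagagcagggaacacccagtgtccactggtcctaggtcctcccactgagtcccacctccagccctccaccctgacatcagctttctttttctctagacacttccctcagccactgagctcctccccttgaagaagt
Dhx36, chr3:62506989-62507238, minus strand: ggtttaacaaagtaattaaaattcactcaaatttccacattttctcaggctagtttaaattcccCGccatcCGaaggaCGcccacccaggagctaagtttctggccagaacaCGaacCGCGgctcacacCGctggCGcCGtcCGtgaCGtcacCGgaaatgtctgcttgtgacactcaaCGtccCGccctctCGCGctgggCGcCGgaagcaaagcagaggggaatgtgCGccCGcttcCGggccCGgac
Dhx36 had 22 CpGs in this window and Pdk1 19, numbers reached by 14.6% and 19.6% of 27025 promoters. The second annotated start of Pdk1 had 2, reached by 80.6%. Dis3, not shown, had 24, reached by 11.7%. Zfp84 had 7 and Lgals9 3, against a median of 6 over all promoters. The 3 annotated starts of Il18r1 had 3, 7 and 6. The 7 genes thus did not share a CpG-rich or a CpG-poor promoter.

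The libraries held 3558329 (D546R), 4287873 (D544R) and 5993741 (WT) counts in H3K79me2, and 6652571, 5207395 and 5859821 counts in H3K79me3 in the same order of genotypes. As a floor for genes without the mark, the 1122 olfactory receptor (Olfr) genes, which blood cells do not use, had 2.46 to 2.68 normalised counts per kb in H3K79me2 and 5.39 to 5.84 in H3K79me3. The median gene had 2.76 to 2.94 in H3K79me2 and 4.70 to 4.86 in H3K79me3, the latter below the olfactory receptor level. That level pools counts and lengths over its genes, while the median is taken over single genes, so the 2 are unlike measures. The labelled cell type was checked in both marks, first in H3K79me2. Of 15 blood progenitor and myeloid markers, 9 (D546R), 11 (D544R) and 10 (WT) were above 2 times the olfactory receptor level, against 0 of 9 lymphoid markers in each library. Of 11 erythroid, megakaryocyte and mast cell markers 1, 0 and 0 were above it, and of 8 stroma and endothelium markers likewise 1, 0 and 0. In H3K79me3 the separation was weaker, with 4, 2 and 5 of the 15 blood progenitor and myeloid markers above that level. There 0 of the lymphoid and 0 of the stroma and endothelium markers were above it in each library. Of the erythroid, megakaryocyte and mast cell markers 0, 0 and 1 were. The summed normalised counts of the blood progenitor and myeloid markers were 9706 (D546R), 7454 (D544R) and 7034 (WT) in H3K79me2, and 7081, 6231 and 6693 in H3K79me3. The erythroid, megakaryocyte and mast cell markers summed to 385, 296 and 279 in H3K79me2 and to 537, 501 and 480 in H3K79me3, in the same order of genotypes. The lymphoid markers summed to 1660, 1444 and 1528 in H3K79me2 and to 2916, 3837 and 3558 in H3K79me3. The stroma and endothelium markers summed to 846, 831 and 807 in H3K79me2 and to 1743, 1565 and 1373 in H3K79me3. All sums were thus higher in D546R than in WT in both marks, except the lymphoid sum, which was lower in H3K79me3. The part of cell composition in the results was not tested.

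Of the 7 genes, 5 had more H3K79me2 and less H3K79me3 in D546R than in WT. Zfp84 had the widest split. In H3K79me2 it had 225 counts in D546R, 128 in D544R and 154 in WT, which after scaling by library size factors were 295, 132 and 114 normalised counts. In H3K79me3 it had 50 counts in D546R, 125 in D544R and 184 in WT, or 42.8, 143 and 187 normalised counts. D546R was thus the highest library in the first mark and the lowest in the second, with D544R between D546R and WT in both. The log2 ratio of D546R over WT was 1.36 in H3K79me2 (counting interval 1.06 to 1.67), 2.57-fold higher. In H3K79me3 it was -2.12 (-2.61 to -1.67), 4.35-fold lower. The ratio of H3K79me3 to H3K79me2 per kb, on a log2 scale, was -2.78 in D546R, 0.12 in D544R and 0.71 in WT.

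Lgals9 followed the same order of libraries. Its H3K79me2 counts were 222 in D546R, 158 in D544R and 182 in WT, or 291, 162 and 135 normalised counts. Its H3K79me3 counts were 63, 111 and 199 in the same order, or 53.9, 127 and 203 normalised counts. D544R again lay between D546R and WT in both marks. Its log2 ratio of D546R over WT was 1.10 (0.82 to 1.40) in H3K79me2 and -1.90 (-2.34 to -1.49) in H3K79me3. For Zfp84 and Lgals9 the H3K79me2 level in WT was 2.87 and 2.11 times that of the olfactory receptor genes, and in D546R 8.05 and 4.93 times. Their H3K79me3 level in WT was 2.34 and 1.57 times that of the olfactory receptor genes, and in D546R 0.518 and 0.405 times.

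In Il18r1, Dhx36 and Dis3 the D544R library had a different place. Il18r1 had 121 H3K79me2 counts in D546R, 94 in D544R and 92 in WT, and 62, 160 and 115 H3K79me3 counts in that order. The normalised counts were 158, 96.7 and 68.3 in H3K79me2 and 53.1, 184 and 117 in H3K79me3. In H3K79me2 D544R lay between the others, but in H3K79me3 it was the highest library. The log2 ratio of D546R over WT was 1.21 (0.81 to 1.62) in H3K79me2 and -1.14 (-1.61 to -0.68) in H3K79me3. In WT both marks of Il18r1 were below the olfactory receptor level, at 0.693 and 0.590 times.

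Dhx36 had D544R in the same place. Its H3K79me2 counts were 273 in D546R, 218 in D544R and 238 in WT, or 357, 224 and 177 normalised counts. Its H3K79me3 counts were 230 in D546R, 439 in D544R and 397 in WT, or 197, 504 and 404 normalised counts. D544R was again the highest H3K79me3 library. The log2 ratio of D546R over WT was 1.02 (0.76 to 1.27) in H3K79me2 and -1.04 (-1.28 to -0.80) in H3K79me3. Dis3 had 125, 104 and 109 H3K79me2 counts and 116, 254 and 201 H3K79me3 counts in D546R, D544R and WT. Its normalised counts were 164, 107 and 81.0 in H3K79me2 and 99.3, 291 and 205 in H3K79me3. Here too D546R was highest in the first mark and lowest in the second, and D544R was highest in the second. Its log2 ratios were 1.01 (0.63 to 1.40) and -1.04 (-1.39 to -0.71). Both genes stood at the 2-fold limit. With total counts as the scale Dhx36 was at 0.95 in H3K79me2 and -0.97 in H3K79me3, Dis3 at 0.95 and -0.97, and neither was 2-fold apart. With TMM scaling Dis3 alone dropped below 2-fold.

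Dagla and Pdk1 went the other way, with less H3K79me2 and more H3K79me3 in D546R than in WT. Dagla had 50 H3K79me2 counts in D546R, 163 in D544R and 195 in WT, or 65.5, 168 and 145 normalised counts. In H3K79me3 it had 407 counts in D546R, 172 in D544R and 148 in WT, or 348, 197 and 151 normalised counts. The D546R library was the one apart in both marks, and D544R was on the side of WT. The log2 ratio of D546R over WT was -1.14 (-1.62 to -0.69) in H3K79me2 and 1.21 (0.93 to 1.49) in H3K79me3. Per kb, its H3K79me2 level was 0.432 times that of the olfactory receptor genes in D546R and 0.878 times in WT. Its H3K79me3 level was 1.02 times theirs in D546R and 0.454 times in WT. Dagla, mainly known from the nervous system, thus had no excess of either mark over silent genes in WT.

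In Pdk1 the library apart differed between the marks. Its H3K79me2 counts were 64 in D546R, 142 in D544R and 249 in WT, or 83.8, 146 and 185 normalised counts, a series of steps with D546R lowest. Its H3K79me3 counts were 183 in D546R, 134 in D544R and 62 in WT, or 157, 154 and 63.1 normalised counts. Here both mutants had nearly the same level and the WT library was low. The log2 ratio of D546R over WT was -1.13 (-1.56 to -0.74) in H3K79me2 and 1.30 (0.89 to 1.75) in H3K79me3. The H3K79me3 level of Pdk1 was 0.864 times that of the olfactory receptor genes in D546R, 0.806 times in D544R and 0.359 times in WT.

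**Figure D1:**
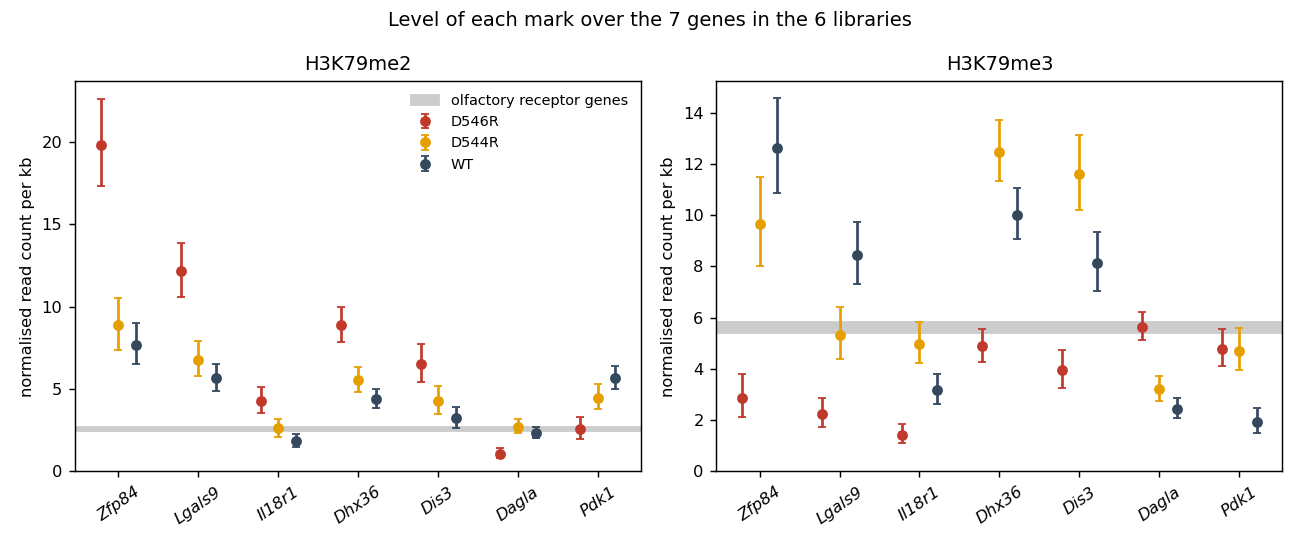
Normalised read counts per kb (vertical axis) of the 7 genes in H3K79me2 (left) and H3K79me3 (right); points are single libraries, D546R left of D544R and WT, bars are 95% Poisson counting intervals and the grey band is the range of the olfactory receptor genes. Zfp84 reached 19.8 in D546R against 7.69 in WT in H3K79me2, and 2.88 against 12.6 in H3K79me3.

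In D546R the levels of the 7 genes were 0.432 to 8.05 times that of the olfactory receptor genes in H3K79me2, and in WT 0.693 to 2.87 times. In H3K79me3 they were 0.259 to 1.02 times it in D546R and 0.359 to 2.34 times in WT. In that mark 6 of the 7 were below the olfactory receptor genes in D546R, 4 in D544R and 3 in WT. The median gene was also below that level in each library, at 4.83 against 5.56 normalised counts per kb in D546R, with the limit given above. The share of all genes below it was not counted. In addition, 5 of the 7 were chosen as lower in D546R than in WT in this mark. Per kb, the log2 ratio of H3K79me3 to H3K79me2 ran from -2.78 to 2.41 over the 7 genes in D546R, from -0.35 to 1.45 in D544R and from -1.55 to 1.34 in WT.

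The same rule was applied to all genes. In H3K79me2, 1.75% of the 8905 genes tested were past the 2-fold rule in D546R against WT: 0.865% lower and 0.887% higher. In H3K79me3 it was 15.9% of 10824 genes: 8.92% lower and 6.94% higher. The 7 genes were selected as past both, so their own share says nothing. Over the 8411 genes tested in both marks, 35 (0.416%) were lower in both, 13 (0.155%) higher in both, and 7 (0.0832%) opposite. Taken singly, 63 of these 8411 genes (0.749%) were higher and 71 (0.844%) lower in H3K79me2. In H3K79me3, 398 (4.73%) were higher and 638 (7.59%) lower. With this many calls in each mark, some genes can be opposite by coincidence. Whether 7 exceeds that number was not tested. Of the opposite genes 5 (0.0594%) had more H3K79me2 and less H3K79me3, and 2 (0.0238%) the reverse. The 5 to 2 split was 3 and 3 with total counts and 10 and 2 with olfactory receptor genes as the reference. At 1.5-fold the numbers came close together: 127 genes lower in both marks (1.51%), 176 higher in both (2.09%) and 127 opposite (1.51%). The split of the calls depended on the scale. In H3K79me2 there were 77 lower and 79 higher as given, 100 and 59 with total counts and 49 and 184 with olfactory receptor genes as the reference. In H3K79me3 there were 965 lower and 751 higher as given, 833 and 889 with total counts and 1068 and 677 with olfactory receptor genes.

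**Figure D2:**
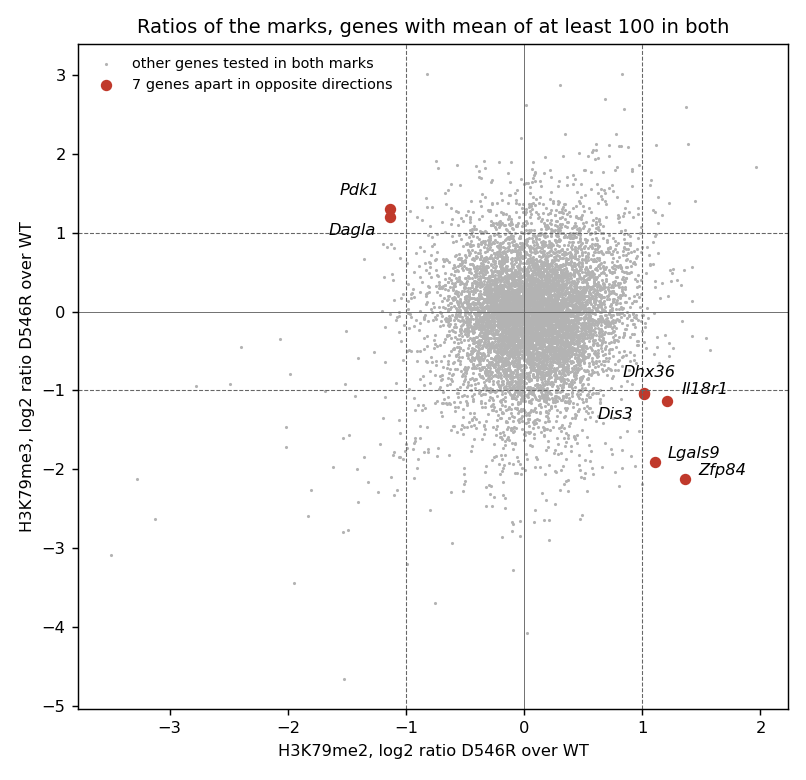
Log2 ratio of D546R over WT in H3K79me2 (horizontal axis) and in H3K79me3 (vertical axis); each point is 1 of the 8411 genes tested in both marks, red points are the 7 genes and dashed lines mark 2-fold. Of the red points 5 lie at lower right and 2 at upper left, and Dhx36 and Dis3 fall almost on the corner of the dashed lines.

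The share of genes past the rule depended on how many reads a gene had. In H3K79me3 it was 30.7% of genes with a mean of 100 to 150, 21.7% at 150 to 200, 14.0% at 200 to 400, 5.30% at 400 to 1000 and 5.77% at 1000 and above. In H3K79me2 it was 2.78%, 2.36%, 1.30%, 0.589% and 2.34% in the same ranges, so that it was high again in the last. The 7 genes lay in the low part of this scale, with means of 108 to 253 in H3K79me2 and 118 to 368 in H3K79me3. Among all genes with a mean of 100 to 400, a range chosen after the values were seen, 2.06% were past the rule in H3K79me2 and 21.4% in H3K79me3. With a minimum mean of 300 in both marks no gene was opposite.

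**Figure D3:**
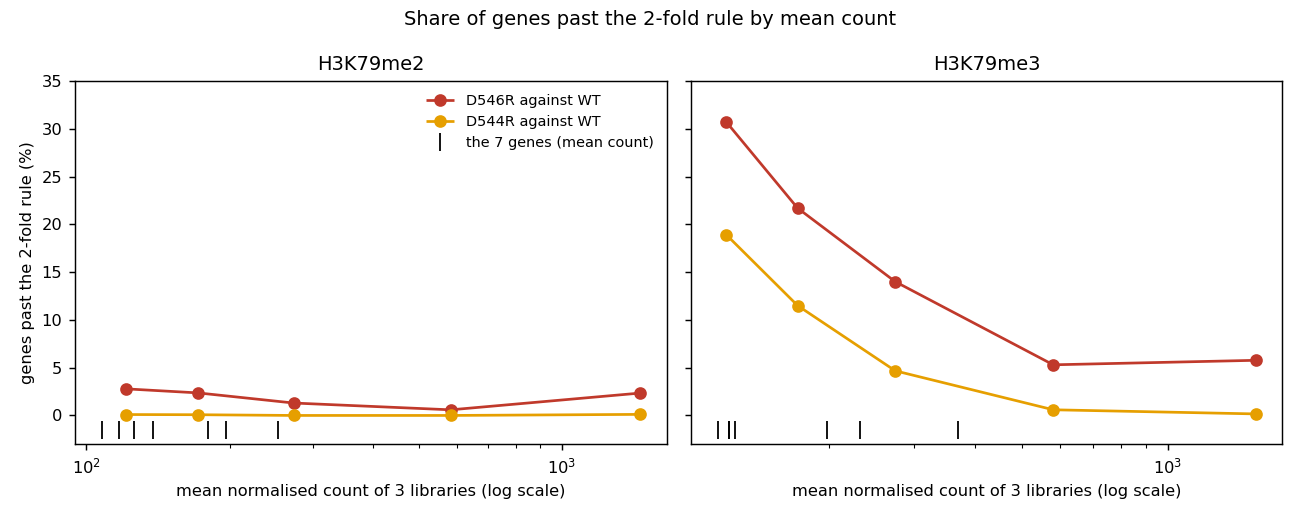
Share of genes past the 2-fold rule (vertical axis, percent) by mean normalised count (horizontal axis, log scale) in H3K79me2 (left) and H3K79me3 (right), with black ticks at the means of the 7 genes. In H3K79me3 the share in D546R against WT falls to 5.30% at a mean of 400 to 1000, against 30.7% at 100 to 150, and the ticks stand at the low end.

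By an estimate from regions without a read, reads fell into clumps more in H3K79me3 than in H3K79me2. The estimate takes the same read density per base for all short regions of a library. True differences in level between regions would also leave regions without a read and raise it. From the share of short regions without a read, each independent DNA fragment was estimated to stand for 4.78 reads in D546R, 3.26 in D544R and 4.05 in WT in H3K79me2. In H3K79me3 it stood for 18.6 reads in D546R, 8.12 in D544R and 9.73 in WT. The 50 H3K79me3 counts of Zfp84 in D546R then correspond to 2.68 fragments, the 63 of Lgals9 to 3.38 and the 62 of Il18r1 to 3.33. The 407 counts of Dagla correspond to 21.8 fragments, and the 62 counts of Pdk1 in WT to 6.37. In H3K79me2 the 7 genes had 10.5 to 57.1 fragments in D546R and 22.7 to 61.4 in WT.

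Intervals on fragments rather than reads, called fragment intervals here, excluded no change in H3K79me2 for all 7 genes. In H3K79me3 they did so for 4 of 7, namely Zfp84 (-4.71 to -0.29), Lgals9 (-4.13 to -0.24), Dhx36 (-2.09 to -0.09) and Dagla (0.20 to 2.26). They included no change for Il18r1 (-3.46 to 0.69), Dis3 (-2.61 to 0.30) and Pdk1 (-0.28 to 3.01). Over all genes, 156 were past the 2-fold rule in H3K79me2 with counting intervals and 155 with fragment intervals. In H3K79me3 the numbers were 1716 and 1062. The fragment intervals use the same D546R and WT counts that chose the genes, so they give no separate support. With these intervals 4 of the 8411 genes (0.0476%) were opposite, 3 with more H3K79me2 (0.0357%) and 1 with less (0.0119%), 33 (0.392%) lower in both marks and 10 (0.119%) higher in both. Without them the numbers were 7, 35 and 13.

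**Figure D4:**
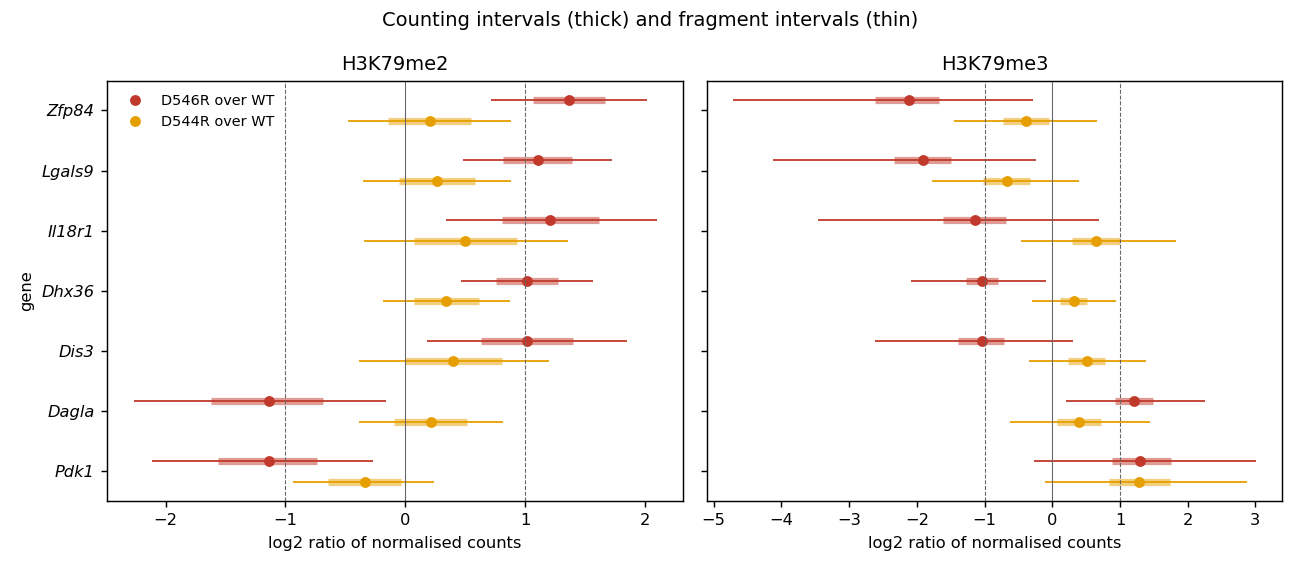
Log2 ratios (horizontal axis) of D546R over WT (red) and D544R over WT (orange) for the 7 genes in H3K79me2 (left) and H3K79me3 (right); thick bars are 95% counting intervals, thin bars fragment intervals and dashed lines mark 2-fold. In H3K79me3 the thin bars of Il18r1, Dis3 and Pdk1 cross 0 in D546R, and every thin bar of D544R crosses 0 in both marks.

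The ratio of D544R to WT was not a criterion for the genes, but it shares the WT libraries with the values above, and the D544R counts entered the minimum mean of 100. Il18r1 met that minimum in H3K79me3 only through D544R: its mean was 118 over the 3 libraries and 85.1 over D546R and WT alone. The high D544R value of Il18r1 is thus in part fixed by the choice. The other genes reached 100 in both marks without D544R. In H3K79me2 its log2 ratio to WT ran from -0.34 (Pdk1) to 0.50 (Il18r1) over the 7 genes. It was above 0 for 6 of them, and none was past the 2-fold rule, against a background of 0.0449% of genes (0.0337% higher and 0.0112% lower). In H3K79me3 it ran from -0.67 (Lgals9) to 1.28 (Pdk1), with 5 above 0. Of the 7 genes, 1 was past the rule, Pdk1 at 1.28 (counting interval 0.84 to 1.74), against a background of 7.38% (4.36% higher and 3.02% lower); its fragment interval, -0.11 to 2.87, included no change. That background splits into 327 lower and 472 higher, or 493 and 328 with olfactory receptor genes as the reference. No gene in the table was opposite in the 2 marks in D544R against WT at 2-fold (0% of 8411), and 15 (0.178%) were at 1.5-fold.

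The difference of the 2 marks, the log2 ratio to WT in H3K79me3 minus that in H3K79me2, set the mutants side by side. For Zfp84 it was -3.48 in D546R and -0.59 in D544R, and for Lgals9 -3.01 and -0.93. It was -2.35 and 0.15 for Il18r1, -2.05 and -0.03 for Dhx36, and -2.06 and 0.11 for Dis3. It was 2.34 and 0.18 for Dagla, and 2.44 and 1.62 for Pdk1. In 4 of the 7 genes the value of D544R was thus within 0.18 of 0, while Zfp84, Lgals9 and Pdk1 leaned the same way as in D546R. D544R lay between D546R and WT in 6 of the 7 genes in H3K79me2 (all but Dagla) and in 4 of 7 in H3K79me3 (Zfp84, Lgals9, Dagla and Pdk1). Of all genes past the rule in D546R against WT it lay between them in 70.5% in H3K79me2 and 71.9% in H3K79me3.

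Set against D544R in place of WT, D546R gave other values, which share the D546R libraries with the choice of genes. Zfp84 was at 1.16 (0.84 to 1.49) in H3K79me2 and -1.74 (-2.25 to -1.26) in H3K79me3, past the 2-fold rule in both. The background was 1.65% of genes in H3K79me2 (0.775% higher and 0.876% lower) and 14.1% in H3K79me3 (5.77% higher and 8.31% lower). Over the genes tested in both marks 5 (0.0594%) were opposite. Lgals9 stood at 0.84 and -1.24, Il18r1 at 0.71 and -1.78, Dhx36 at 0.67 and -1.35, and Dis3 at 0.61 and -1.55, 2-fold lower in H3K79me3 and short of 2-fold in H3K79me2. Dagla was at -1.35, past the rule, and 0.82, and Pdk1 at -0.80 and 0.03. The fragment interval of Zfp84 in H3K79me3 was -4.35 to 0.14 and included no change.

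Just inside the limit of the rule were Dis3, at 1.01 and -1.04, and Dhx36, at 1.02 and -1.04. Just outside were 6 genes whose smaller log2 ratio was 0.91 to 1.00. E2f8, which encodes a repressor of the E2F family, was at 1.00 in H3K79me2 (179 counts in D546R and 158 in WT) and -2.19 in H3K79me3 (52 in D546R and 201 in WT). Lrrn1, a gene of a leucine-rich repeat membrane protein, was at -0.97 and 1.28. The noncoding RNA gene Gas5 was at 0.97 and -1.51. Trim36 was at 0.94 and -1.96, Ormdl1, a regulator of sphingolipid synthesis, at 0.91 and -0.92, and the methyl-CpG binding protein gene Mbd1 at 0.91 and -1.83. Over the 8411 genes tested in both marks, 1567 had opposite signs with both counting intervals excluding no change and no 2-fold difference in at least 1 mark. Counting intervals take each read as independent. The same count was not made with fragment intervals or for genes with equal signs. Of the 1567 genes, 1063 had more H3K79me2 and 504 less. This split was counted with the main scaling only, where the median log2 ratio of all genes tested was 0.07 in H3K79me2 and -0.03 in H3K79me3. With total counts the medians were 0.008 and 0.039.

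Within 100 kb there were 26 regions, of which 12 had a mean of at least 100 in H3K79me2 and 16 in H3K79me3. None of the 12 was past the 2-fold rule in H3K79me2, against 1.75% of all genes tested, and 1 of the 16 was in H3K79me3, against 15.9%. These counts are too small to set the neighbours apart from other genes. The 1 gene was Myrf, beside Dagla. Myrf, which encodes a regulator of myelin genes, had 211 H3K79me3 counts in D546R, 77 in D544R and 79 in WT, a log2 ratio of 1.16; its H3K79me2 ratio was 0.41 on few counts. Dagla and Myrf were thus both higher in H3K79me3 counts in D546R, across a gap of 2.52 kb. The fragment interval of Myrf, -0.26 to 2.67, included no change. Its H3K79me3 level was 0.942 times that of the olfactory receptor genes in D546R, 0.439 times in D544R and 0.433 times in WT.

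The neighbours of Il18r1 came closest to its pattern. Il18rap, which encodes the second chain of the interleukin 18 receptor and lies 12.5 kb away, had 211 H3K79me2 counts in D546R, 137 in D544R and 201 in WT, and 212, 232 and 297 H3K79me3 counts. Its log2 ratios of D546R over WT were 0.89 and -0.74. Il1rl1, the interleukin 33 receptor gene on the other side, had 0.89 and -0.95 on means below 100. Il1rl2 was at -0.95 in H3K79me3, and Slc9a4 at -0.13 in H3K79me2 and 0.52 in H3K79me3. Of the 4 genes within 100 kb, the 2 nearest to Il18r1 leaned the same way in both marks, short of 2-fold.

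Values of neighbours below are log2 ratios of D546R over WT, H3K79me2 before H3K79me3. Regions that overlap share reads. Mir1964 lies inside the region of Zfp84, over 2083 bases, and had 51, 23 and 33 H3K79me2 counts and 2, 9 and 11 H3K79me3 counts in D546R, D544R and WT. These are part of the Zfp84 reads and no separate gene. Zfp30, of the same zinc finger family and 1.37 kb further on, went the other way, at -0.74 and 1.11, on means below 100. The end of the Dis3 region overlapped Pibf1, a centrosome gene, over 2347 bases. Pibf1 was at 0.07 and -0.25 and Bora, on the other side, at 0.19 and 0.35. Beyond Pibf1 the nearest region was Klf5, a zinc finger transcription factor gene 197 kb away, with 176 H3K79me2 counts in D546R, 80 in D544R and 116 in WT. It was past the rule in that mark at 1.42, and at 0.14 in H3K79me3. Beside Lgals9, Nos2, which encodes inducible nitric oxide synthase, was at -0.65 and 0.06 and Ksr1, a scaffold gene of Ras signalling, at 0.39 and -0.06. Beside Dhx36, Arhgef26 was at 0.21 and 0.31 and Gpr149 at -0.26 and 0.50. Catsperg2, on the other side of Zfp84, was at 0.27 and 0.02, and Syt7, on the other side of Dagla, at -0.82 and 0.23. Beside Pdk1, the integrin gene Itga6 was at -0.07 and 0.34 and Rapgef4 at -0.41 and -0.06.

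**Figure D5:**
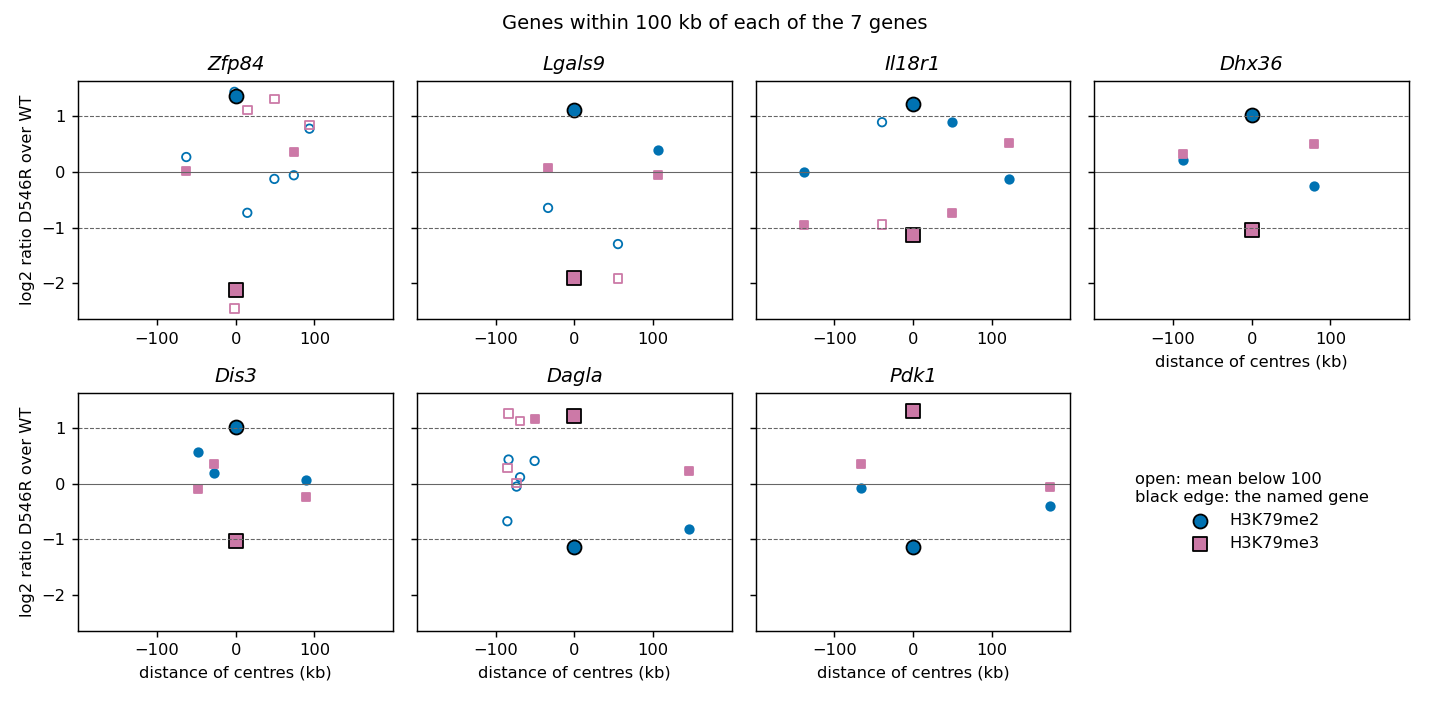
Log2 ratio of D546R over WT (vertical axis) in H3K79me2 (circles) and H3K79me3 (squares) for each of the 7 genes (black edge) and the regions within 100 kb, by distance between region centres (horizontal axis, kb); open symbols have a mean below 100. The filled neighbours lie within the dashed 2-fold lines apart from Myrf beside Dagla at 1.16 in H3K79me3.

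Likeness was measured as the Euclidean distance over 4 log2 ratios, D546R over WT and D544R over WT in each mark, among the 8411 genes. Dhx36 and Dis3 were nearest to each other (0.20), and Il18r1 was nearest to Dis3 (0.28) and then Dhx36 (0.43). Zfp84 and Lgals9 were nearest to each other (0.45). Outside the 7, Pafah2 was the gene nearest to Dhx36 (0.23) and to Dis3 (0.27). Mbd1 followed for Zfp84 (0.58) and Akr1c13 for Lgals9 (0.49). The nearest to Dagla were Adcyap1r1 (0.33) and Jade2 (0.35), and to Pdk1 Svop (0.52) and Mroh8 (0.58). Of the 4 ratios 2 are the D546R over WT values that chose the genes, so members with the same directions had to lie near each other, and all 4 share the WT libraries. The distances are a description only.

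The partners of the 7 genes in their own pathways were looked at in lists that leave the 7 out. Counts in these lists stand against 1.75% of all genes past the rule in H3K79me2 and 15.9% in H3K79me3 (8.92% lower and 6.94% higher). Of interleukin 18 receptor signalling genes 9 were tested in H3K79me2 and 10 in H3K79me3 in D546R against WT. None was past the rule in H3K79me2, and in H3K79me3 1 was lower, the ligand gene Il18 at -1.14 (81 counts in D546R, 150 in WT). The list's median log2 ratios were 0.26 in H3K79me2 and -0.39 in H3K79me3, the order of marks kept for the lists that follow, against 0.07 and -0.03 over all genes tested. In this list the receptor gene Il1r1 was lowest (-0.38) and Il18rap highest (0.89) in H3K79me2, and Il1rap, another receptor chain gene, highest in H3K79me3 (0.62).

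Galectins and galectin 9 partners had 6 and 7 tested members and none past the rule in either mark, with medians of 0.61 and -0.29. Lgals3, the galectin of macrophages, was highest in both marks (0.83 and 0.05), Pdia3 lowest in H3K79me2 (0.04) and P4hb lowest in H3K79me3 (-0.59). Havcr2, which encodes TIM-3, was at 0.58 and -0.58. The RNA exosome and its cofactors had 11 and 10 tested members, none past the rule, and medians of 0.18 and -0.33. Dis3l was lowest (-0.58) and the poly(A) polymerase gene Papd5 highest (0.38) in H3K79me2, and Papd5 was lowest (-0.94) and Dis3l2 highest (0.29) in H3K79me3. Helicases of the DEAH and G-quadruplex list had 14 and 17 tested members and medians of 0.08 and 0.13. Of these 1 was past the rule, Dhx35 in H3K79me3, higher at 1.02. Dhx33 was lowest in H3K79me2 (-0.56) and Blm, the Bloom syndrome helicase gene, lowest in H3K79me3 (-0.997).

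The list of 2-arachidonoylglycerol and cannabinoid genes had 9 and 10 tested members and medians of 0.35 and 0.14. Cnr2, the cannabinoid receptor gene of blood cells, was past the rule in H3K79me3, higher at 1.02, and stood at 0.82 in H3K79me2. Plcb2 was highest in H3K79me2 (0.88), Napepld lowest (-0.53), and Abhd12 lowest in H3K79me3 (-0.90). Daglb, the paralog of Dagla, was at 0.62 and -0.14, on the other side of 0 from Dagla in both marks, with 117 H3K79me2 counts in D546R and 134 in WT. Genes of pyruvate dehydrogenase and its kinases had 10 and 11 tested members and medians of 0.22 and -0.28. In H3K79me3, 2 were lower, Hif1a, the hypoxia regulator, at -1.54 and Mpc2, a subunit of the mitochondrial pyruvate carrier, at -1.07. Pdk3, a paralog of Pdk1, was highest in both marks (0.50 and 0.31), and Hif1a lowest in both (-0.21 in H3K79me2). Cofactors of KRAB zinc finger proteins had 7 and 8 tested members and medians of 0.12 and -0.60. In H3K79me3, 3 were lower, the heterochromatin protein genes Cbx1 (-1.70) and Cbx3 (-1.001) and the methyltransferase gene Setdb1 (-1.52). Chd4 was highest in H3K79me2 (0.81), Cbx1 lowest (-0.16), and Chd3 highest in H3K79me3 (0.21). The 7 are all the genes that met the rule in opposite directions in the 2 marks, so lists without them could hold no further opposite gene.

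In D544R against WT no tested member of these 7 lists was past the rule in H3K79me2. In H3K79me3, 1 was higher, Dhx40 at 1.24, and 1 lower, Chd4 at -1.43, against 4.36% higher and 3.02% lower over all genes. The lists had medians between -0.15 and 0.08 in the first mark and between -0.21 and 0.14 in the second.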

How the data were processed

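Per the file headers, the deposited values are raw counts: for every gene the authors counted reads over a region that begins 2 kb ahead of the transcription start and stops where the transcript ends. Several runs were merged per library, per the labels. Bowtie, bedtools, DESeq and the build mm9 are named in the submitters' processing notes; no source used here states their roles or versions, or how duplicates and input were treated. All 24012 genes and all 6 libraries were used. Counts were divided by median-of-ratios size factors computed within each mark (23029 genes in H3K79me2 and 20863 in H3K79me3), and log2 ratios used a prior count of 0.5. Ratios carry exact binomial 95% counting intervals; fragment intervals use counts divided by the reads per fragment, estimated from regions without a read among 4591 regions shorter than 5 kb. Intervals cover counting error only. With 1 library per group no test between conditions was possible. Ratios and calls were tested on simulated counts without clumps, and the fragment estimate on simulated clumps of a fixed size at even density. Those settings are simpler than these libraries, so the simulations cannot show how well the intervals or the fragment estimate hold here. Genes named besides the 7 are the 6 nearest to the limit, the neighbours, the 2 most alike per gene, and in each list those past the rule with the lowest and highest; Havcr2, Daglb, Dhx40, Chd4, Il1rl2 and Slc9a4 were added after their values were seen. The members, lists and rules were chosen with earlier results of these data known. Alternatives were other scalings (total counts, TMM from edgeR 4.0.16, olfactory receptor genes, size factors over all 6 libraries), filters, folds, priors and fragment intervals. Python 3.11.15, numpy 2.4.6, pandas 2.3.3, scipy 1.17.1 and R 4.3.3 were used.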

Additional observations from a re-analysis of the deposited data

Results flagged for a closer look

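In H3K79me3 3 of the genes lay on opposite sides of WT in the 2 mutants, with every counting interval excluding no change. In D546R that was a condition of the choice of genes. Of all 1716 genes past the rule in D546R against WT in this mark, D544R lay between D546R and WT in 71.9%. How many of them lay on opposite sides of WT was not counted. The log2 ratio to WT was -1.14 in D546R and 0.65 in D544R for Il18r1, -1.04 and 0.32 for Dhx36, and -1.04 and 0.51 for Dis3. All of these ratios share 1 WT library, each group is 1 library, and the difference was not tested. Il18r1 met the minimum mean of 100 in H3K79me3 only through its D544R library, so that its high D544R value is in part fixed by the choice of genes. The fragment intervals in D544R included no change for all 3 genes. In D546R they included it for Il18r1 (-3.46 to 0.69) and Dis3 (-2.61 to 0.30) but not for Dhx36 (-2.09 to -0.09).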

How the results depend on the processing

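The number of opposite genes, 7, became 12 with olfactory receptor genes as the reference, 0 with a minimum mean of 300, 840 without a filter, 127 at 1.5-fold and 4 with fragment intervals. It was 6 with total counts, 3 in each direction, of which 5 belong to the 7, 6 with TMM, all among the 7, and 10 with size factors over all 6 libraries, which include the 7. Genes past the 2-fold rule in H3K79me2 numbered 156 in D546R and 4 in D544R; they became 41 and 1 with a minimum mean of 300, 3130 and 1009 without a filter, and 1171 and 122 at 1.5-fold. In H3K79me3 they numbered 1716 in D546R and 799 in D544R, and became 333 and 51, 8808 and 6350, and 3956 and 2594 under the same 3 changes, and 1062 and 496 with fragment intervals. The cause was not tested. The log2 ratios of the 7 genes reversed under none of the 5 alternatives for scaling and prior count. Leaving out a library was not possible because each group has 1. No paired analysis was possible because each group has 1 library and the labels carry no replicate numbers. The D546R library of H3K79me3 had the most counts but an estimated 18.6 reads per fragment, which leaves the 7 genes with 2.68 to 21.8 estimated fragments.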
